A study of Mus musculus with 4 samples.

Results

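Germinal centre (GC) B cells and naive B cells of the mouse Peyer's patch (PP) were compared on 1 Affymetrix array each, 2 of the 4 arrays of the study. The members are all 45101 probe sets of those arrays, of which 34958 carried 1 gene symbol and stood for 18194 genes. The other 2 arrays hold GC and naive B cells of peripheral lymph nodes (pLN) and are given side by side. All mice were adult wild-type C57BL6/J animals kept under specific pathogen free conditions. The PP donors had received no treatment, while the pLN donors had been immunised with TNP-KLH, a hapten coupled to a carrier protein, in incomplete Freund's adjuvant. Tissue and immunisation therefore cannot be told apart between PP and pLN. Cells were sorted by flow cytometry as B220+PNA+Fas+ for GC and B220+PNA-Fas- for naive cells. PNA is a lectin that binds a glycan left uncapped by sialic acid on GC B cells. RNA came from pools of 3 to 5 mice, and every group is 1 array. No value below has a replicate, an error or a test, and the spread between mice is not known.

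Peyer's patches are lymphoid follicles of the small intestine in which gut microbes and food antigens keep GCs active without immunisation. In a GC, B cells divide rapidly in a dark zone, mutate their antibody genes, and are selected in a light zone by antigen and T cell help. Many GC B cells of the gut switch to IgA, the antibody class secreted across the epithelium, and some leave as plasma cells. Naive follicular B cells are resting cells that recirculate through blood and lymph.

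Signals are given as intensities scaled so that every array had a 2% trimmed mean of 500. A gene was represented by the probe set brightest on the PP arrays. Its log2 fold compares the GC signal with the naive signal after adding an offset of 16.9 to each, which understates the folds of dim genes. A gene is called higher or lower in GC cells when the fold was 2 or more and the brighter signal lay above that array's detection level. The level was 109 on the GC PP array and 146 on the naive PP array, and was taken from genes of unrelated tissues. Where the dimmer signal lay under its level, the size of the fold is not measured. A bound ("at least"), the bright signal over the dim array's level, is then given for most genes, and a log2 fold of such a set, also within a range over sets or a list median, gives the direction only. Fewer cells of a type and less RNA per cell cannot be told apart in such bulk samples.

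The PP arrays differed in a sign of RNA quality. Affymetrix arrays carry control probe sets at the 5' end, the middle and the 3' end of long transcripts, which read alike when the RNA is intact and fully copied. The 3' set of Gapdh, a glycolytic enzyme, read 10796 on the GC PP and 31648 on the naive PP array, a log2 fold of -1.55. Its middle set read 8106 and 9605, a log2 fold of -0.24. The 5' set read 6482 and 328, a log2 fold of 4.23. A single transcript thus read lower, alike or higher in GC cells by the place of the probe set. The Actb controls, for cytoplasmic actin, gave log2 folds of -2.32, -1.25 and 2.86 in the same order. The 3' over 5' ratio of Gapdh was 1.67 on the GC PP and 96.4 on the naive PP array, against 1.48 and 18.7 in pLN. Foreign control transcripts for hybridisation, 18 probe sets, had a median of 3970 on the GC PP and 15696 on the naive PP array. Scaling the PP arrays to those controls moved the median PP log2 fold over all genes to 1.79, and folds that rest on dim signals by other amounts. These differences moved with cell type, and their part in the results was not tested.

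**Figure D1:**
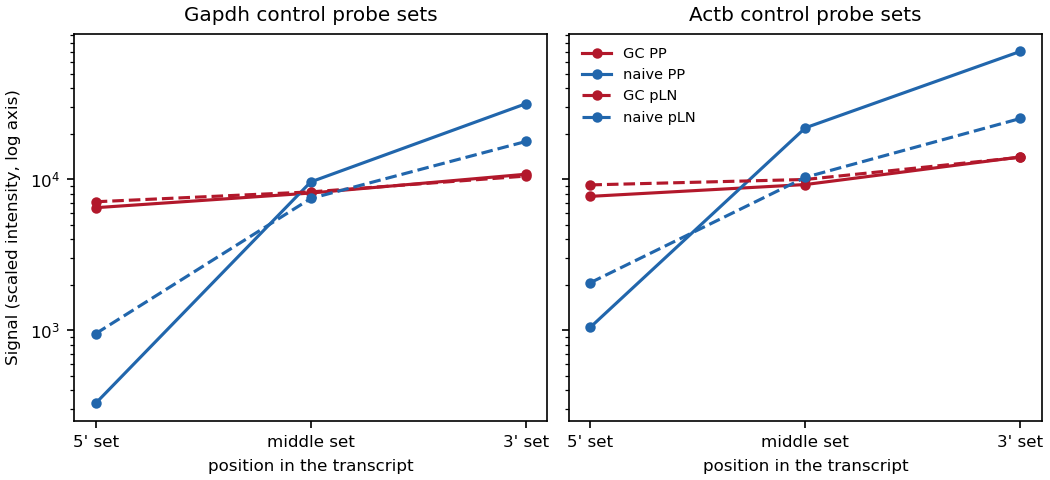
Signals (scaled intensity, log axis) of the 5', middle and 3' control probe sets of Gapdh and Actb on the 4 arrays, GC in red and naive in blue, PP solid and pLN dashed. On the naive PP array Gapdh went from 328 at the 5' set to 31648 at the 3' set, and on the GC PP array from 6482 to 10796.

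In PP, GC and naive B cells differed broadly. On either array 9887 genes exceeded the level, of which 3024 (30.6%) were higher in GC cells, 2832 (28.6%) lower and 4031 neither. The median log2 fold of the 9887 genes was 0.01. The shares of 30.6% higher and 28.6% lower are those beside which the counts of every list below stand. Higher genes made up 51.6% of these calls, and 93.6% (6583 higher, 447 lower) when the arrays were scaled to the hybridisation controls. By the signals as read, 249 genes were higher and 39 lower by 16-fold or more. Many of these folds rest on a dim signal under the level, and with such signals set at the level the counts were 73 and 31. A stricter reading came from genes where at least 2 probe sets exceeded the level. Of 4627 such genes, 772 (16.7%) had every probe set higher, 303 (6.55%) every set lower, and 747 (16.1%) had sets called in opposite directions. The higher calls held across probe sets more often than the lower calls. Among called genes with several sets, all sets pointed the same way for 58.2% of those called higher and 22.2% of those called lower. At least 1 other set was called in the opposite direction for 6.94% and 40.3%. For 1698 higher and 1466 lower genes a single set was above the level, so the position of the probe set could not be weighed for them. Bright genes as a class read lower in GC cells, with a median log2 fold of -0.86 in the brightest of 4 equal classes and 0.64 in the dimmest.

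**Figure D2:**
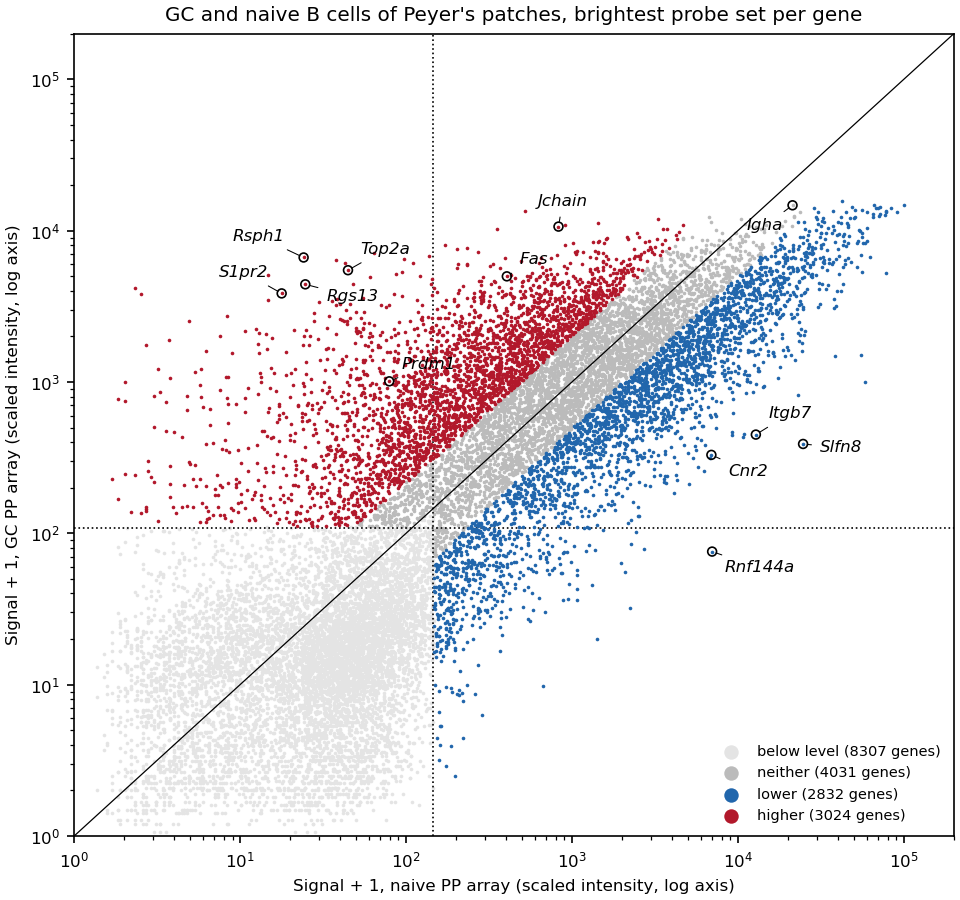
Each point is 1 gene by its brightest probe set, with the signal plus 1 on the naive PP array across and on the GC PP array upward (scaled intensity, log axes). The diagonal marks equal signals and the dotted lines the detection levels of 146 and 109; 3024 genes in red were at least 2-fold higher and 2832 in blue at least 2-fold lower in GC cells.

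The labels of the sorted populations were checked first. Fas, the death receptor on which GC cells were gated, read 4987 on the GC PP and 404 on the naive PP array, a log2 fold of 3.57; since it defined the sort, it serves only as a check. S1pr2, the sphingosine-1-phosphate receptor that confines B cells to the GC, read 3846 and 17, at least 26.4-fold higher. Its other probe set read 258 and 60, at least 1.77-fold higher, so that a 2-fold difference was not measured by that set. Rgs13, which shortens chemokine receptor signalling by speeding G protein inactivation, read 4416 and 24, at least 30.3-fold higher, by its only probe set. Bcl6, the repressor that maintains GC identity, was higher by both of its sets, at 7615 against 2993 (log2 fold 1.34) and 1389 against 112 (at least 9.52-fold). The pan-B cell genes were bright on both PP arrays. Ms4a1, which encodes CD20, read 11373 and 6869, Cd79b 10233 and 13829, and Pax5 541 and 359, none of them 2-fold apart. Cd79a, the other signalling chain of the B cell receptor, read 6822 and 25316 and was lower, with a log2 fold of -1.89. Ptprc, which encodes the B220 antigen, read 2875 and 3840 by its brighter set, a log2 fold of -0.42, and 7198 and 562 by the other, at 3.64.

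Markers of other cells were read on the same arrays. On the GC PP array 7 of 14 T cell markers exceeded the level and on the naive PP array 2, with summed signals of 3477 and 15662. Cd2, which B cells of mice also carry, gave 14661 of the naive sum. The CD3 chains Cd3g, Cd3d and Cd3e read 204, 236 and 244 on the GC PP array and 12.9, 43.2 and 74.2, all under the level, on the naive PP array. They were thus at least 1.40-, 1.62- and 1.67-fold higher, so that a 2-fold difference was not measured. On the GC pLN array the same chains read 74.9, 107 and 95.7, above that array's lower level of 51.7. Of 5 NK cell and cytotoxic markers, 3 were above the level in GC PP (summed signal 3136) and 0 in naive PP (180). Gzma, a granule protease of cytotoxic lymphocytes, read 2248 on the GC PP and 12 on the naive PP array, at least 15.4-fold higher, against 257 and 10.3 in pLN. Prf1, the pore-forming protein of those granules, read 569 and 16, at least 3.9-fold higher. Dendritic cell markers were above the level for 4 of 9 in GC PP and 0 in naive PP, among them Flt3, a cytokine receptor of progenitors, at 1232 and 14. Macrophage markers were above the level for 5 and 4 of 13, with sums of 5703 and 4019. Apoe, a lipid carrier, read 3567 and 493 and gave most of the GC PP sum. Lyz2 and Cd68 were also higher on the GC PP array. Csf1r read 26.2 and 155, at least 1.42-fold lower. Ctsb was lower by its brightest set, at 1158 against 2623, with its 3 sets above the level pointing both ways. Follicular helper T cell markers numbered 2 and 0 of 7, follicular dendritic and stromal markers 4 and 4 of 13, and granulocyte markers 0 of 6 on both. Cd4 of T cells, Adgre1 of macrophages and Nkg7 of NK cells lay under the level on both PP arrays. These markers moved with cell type beside the lists below, and their part in those was not tested.

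Gut epithelial genes were on both PP arrays and stronger on the naive one. Of 21 such genes, 14 were above the level on the naive PP array (summed signal 8347) and 10 on the GC PP array (3959), against 4 (1977) and 1 (721) in pLN. Krt8, a keratin of simple epithelia, read 129 on the GC PP and 1242 on the naive PP array, and its 3 probe sets gave log2 folds from -4.44 to -3.11. In pLN it read 0.906 and 19.0, under the level. Krt19, another keratin, read 118 and 928, and Krt20 63.5 and 460. Apoa4 and Apoa1, apolipoproteins made by the gut lining, read 79.5 and 491, and 139 and 1130. Among 15 epithelial genes that exceeded the level, 8 were lower in GC cells and 2 higher. Apoa1 also belongs to the unrelated genes behind the detection level; leaving the apolipoproteins out of that set gave 3104 higher and 3015 lower genes. Those genes of unrelated tissues also read brighter on the naive PP array, with summed signals of 3134 on the GC PP and 9430 on the naive PP array. Their median log2 fold was -1.53, against -1.33 for the epithelial genes. With signals under the level set at it, these medians were -0.78 and -0.60. In the GC-naive difference the epithelial genes thus did not stand apart from those of unrelated tissues. In the share above the level they did. Of 61 genes of unrelated tissues, 8 exceeded it on the GC PP and 7 on the naive PP array. That share is largely fixed, since the level was taken from these genes. On each pLN array 8 of the 61 exceeded the level. The part of epithelial cells in the GC-naive differences was not tested.

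The clearest pattern was in cell division. Of 53 mitosis genes above the level, 50 were higher in GC cells, none was lower, and 3 (Smc2, Smc4 and Pttg1) were neither. Their median log2 fold was 4.73, against 0.01 over all genes, and 3.92 in pLN. It was 3.45 in PP when signals under the level were set at it. Of 31 with several sets above the level, 26 had every set higher and none had sets pointing both ways. On the same arrays the 5' control set of Gapdh differed by 4.23 and its 3' set by -1.55. Shcbp1, a midbody protein, read 4190 on the GC PP and 1 on the naive PP array, at least 28.7-fold higher. Spag5, a spindle protein, read 3503 and 14, with 3 sets between 3.48 and 6.85 on the log2 scale. Nusap1, which bundles spindle microtubules, read 2737 and 7, at least 18.8-fold higher, and Cdkn3, a phosphatase of cyclin-dependent kinase, 1748 and 2, at least 12-fold higher. Mki67, the common proliferation marker, was above the level on both arrays, at 10219 and 352, a log2 fold of 4.79. Ncapg, a condensin subunit that compacts chromosomes, likewise read 5990 and 204, with sets at 4.76 and 5.27. Its fold is therefore measured on both sides at this level. A stricter level, the 95th percentile of the unrelated genes, was 566 on the naive PP array. The naive signals of Mki67 and Ncapg lay under that. The order among genes whose naive signal lay under the level is not resolved.

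The mitosis genes shared letters in their promoters that were not used to choose them. Nearly all measured genes of that list were higher, so the shares below describe the list and not a selection by the arrays. RefSeq start sites of the mouse build GRCm38.p6 gave 43 windows for 41 of the 50 higher mitosis genes, each from 250 bases before the start to 50 after. The sequence TTTGAA, the core of the cell cycle homology region found in promoters active in late cell cycle, was searched on both strands. It lay in 34 of the 43 windows (79.1%), against 13.4% of the 18110 windows of all genes on the array. CCAAT, the box bound by NF-Y, lay in 31 (72.1%) against 37.4%, and both motifs together in 29 (67.4%) against 5.23%. In these windows 53.5% of TTTGAA matches began after the start site, against 11.4% over all genes. The letters of the E2F site TTCCCGCC were in 0 of the 43 windows, against 3.18% of all windows. Over all genes called higher in PP, TTTGAA lay in 14.1% of windows, and over those called lower in 11.2%. A match describes letters and does not show that a factor binds there. Of the promoters with both motifs, 5 are shown over the 150 bases before the start, 5' to 3' on the gene's strand, with TTTGAA (or TTCAAA, its reverse complement) and CCAAT (or ATTGG) in capitals. They were taken in order of log2 fold from genes whose only window held both motifs within those 150 bases. Promoters with TTTGAA only after the start are therefore not among them. They are Cdkn3 (chr14:46760391-46760540, plus strand), Top2a (chr11:99024190-99024339, minus), Ube2c (chr2:164769779-164769928, plus), Espl1 (chr15:102296143-102296292, plus) and Kif11 (chr19:37376232-37376381, plus).
Cdkn3: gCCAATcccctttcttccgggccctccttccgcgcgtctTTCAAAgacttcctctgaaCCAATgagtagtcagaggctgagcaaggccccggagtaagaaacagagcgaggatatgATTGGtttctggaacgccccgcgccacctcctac
Top2a: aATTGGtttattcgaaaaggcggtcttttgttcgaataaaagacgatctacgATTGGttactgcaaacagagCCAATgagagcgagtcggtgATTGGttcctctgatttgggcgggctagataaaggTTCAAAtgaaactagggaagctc
Ube2c: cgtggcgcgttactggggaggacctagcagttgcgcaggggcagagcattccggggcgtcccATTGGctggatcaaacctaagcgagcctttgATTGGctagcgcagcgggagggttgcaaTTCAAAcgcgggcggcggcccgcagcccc
Espl1: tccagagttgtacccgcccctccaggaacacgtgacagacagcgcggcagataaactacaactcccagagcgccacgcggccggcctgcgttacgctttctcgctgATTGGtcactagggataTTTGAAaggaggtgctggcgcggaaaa
Kif11: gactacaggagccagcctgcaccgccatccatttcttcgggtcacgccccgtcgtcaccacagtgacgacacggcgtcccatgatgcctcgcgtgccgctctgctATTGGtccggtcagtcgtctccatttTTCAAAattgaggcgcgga

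Those 5 genes had been chosen among genes called higher in GC cells of PP. Top2a, the topoisomerase that untangles chromosomes, read 5475 on the GC PP and 43.7 on the naive PP array, at least 37.5-fold higher. Its promoter window holds 4 CCAAT boxes and a TTCAAA that begins 23 bases before the start. Ube2c, the ubiquitin-conjugating enzyme of the anaphase complex, read 2116 and 12, at least 14.5-fold higher. Espl1, the protease that separates sister chromatids, read 785 and 9.70, at least 5.38-fold higher. Kif11, the motor that pushes spindle poles apart, read 2011 and 52.5, at least 13.8-fold higher, and its 3 sets lay between 2.10 and 5.21 on the log2 scale. In Ube2c, Espl1 and Kif11 the TTTGAA match begins 29, 27 and 19 bases before the start.

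DNA replication genes were higher too, less uniformly. Of 42 above the level, 30 were higher, 4 lower and 8 neither, with a median log2 fold of 2.16 (1.76 in pLN). Of 30 with several sets, 17 had every set higher, 1 every set lower and 3 sets both ways. Uhrf1, which maintains DNA methylation at the fork, read 6347 on the GC PP and 37 on the naive PP array, at least 43.5-fold higher, and its other set gave a log2 fold of 3.21. Pclaf, a PCNA-binding factor, read 4435 and 47, at least 30.4-fold higher, with sets from 1.32 to 6.12. Atad5, which unloads PCNA, read 3827 and 2, at least 26.2-fold higher, with its other set at 4.73. Clspn, a checkpoint mediator at the fork, was higher by both sets, at 5.23 and 5.93. Mcm10, a replication initiation factor, was higher by both sets above the level, at 4.66 and 6.09. Dnmt1, the maintenance DNA methyltransferase, was lower by its brightest set at 8031 against 31618 (log2 fold -1.97), yet its other sets read 8771 against 1089 and 2891 against 251 (2.99 and 3.44). Rfc4, a clamp loader subunit, also pointed both ways, at -1.42 and 1.69. In the promoter windows of the higher replication genes, TTTGAA lay in 11.1% of 27 windows and the E2F letters in 22.2%.

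Genes of the GC programme were mostly higher. Of 19 above the level, 12 were higher, 2 (Mef2c and Irf8) lower and 5 neither, with a median log2 fold of 2.76 against 1.78 in pLN. Gcsam, a signalling and motility protein named for its GC expression, read 3410 and 35 by 1 set, at least 23.4-fold higher, and 1904 and 9.63 by the other, at least 13-fold. Rassf6, a Ras-association domain protein, read 6087 and 42, at least 41.7-fold higher by its only set. Mybl1, a transcription factor of the Myb family, read 1781 and 11.8, at least 12.2-fold higher. Ezh2, the methyltransferase that writes H3K27 methylation, read 5010 and 695, a log2 fold of 2.82, and Pou2af1, a coactivator needed for GCs, 7374 and 1071, at 2.76. Mef2c, another transcription factor of activated B cells, had 5 sets between -1.88 and 1.73.

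Genes of sphingosine-1-phosphate and G13 signalling had shares near those of all genes. Of 14, 4 were higher (28.6%, against 30.6% of all genes), 4 lower (28.6%, against 28.6%) and 6 neither, with a median log2 fold of 0.08. Cd69, which removes S1pr1 from the cell surface, read 4018 and 519, a log2 fold of 2.91. Gna13, the G protein alpha subunit through which S1pr2 restrains migration, read 5379 and 2034, with all 7 sets between 1.08 and 2.87. Arhgef1, an exchange factor that acts downstream of G13, read 3644 and 16078 by its brighter set, a log2 fold of -2.14, and 868 and 36 by the other, at least 5.95-fold higher. S1pr1, the receptor that draws lymphocytes into lymph, read 135 and 125 and differed by 0.10, with the naive signal under its level. The RGS family, which damps G protein signals, had 7 of 10 genes higher and 2 lower. Its median of 1.76 (0.93 in pLN) was 1.02 with quantile normalization and 0.88 with signals under the level set at it. Rgs1, a regulator that lowers responses to chemokines, read 5362 and 93, at least 36.7-fold higher, against 284 and 26.4 in pLN. Rgs19 read 5723 and 43238 by its brighter set, a log2 fold of -2.91, and its other set gave 0.16.

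Dark zone genes were higher and light zone genes were divided. Of 16 dark zone genes, 13 were higher and 1 lower, with a median of 2.80 (1.69 in pLN); 9 of the 13 are mitosis genes counted above. Hmmr, a spindle-associated protein, was higher by all 5 sets, from 1.14 to 5.06. Foxo1, a factor required for the dark zone, read 4657 and 23487, a log2 fold of -2.33, with other sets from -2.88 to 1.49. Cxcr4, the chemokine receptor that places cells in the dark zone, read 6935 and 5103, a log2 fold of 0.44. Light zone and activation genes numbered 21, with 6 higher, 9 lower and a median of -0.44. Over all genes 30.6% were higher and 28.6% lower. Batf, a factor needed for class switching, read 1128 and 132, at least 7.73-fold higher. Egr2, induced by receptor signals, was higher by both sets, at 2.86 and 3.92, and Cd86, a costimulatory ligand, by both sets at 1.74 and 1.97. Nfkbie, an inhibitor of NF-kB, read 4525 and 30779, with sets at -2.76 and -2.23. Ccnd2, a cyclin of early G1, had 7 sets between -2.58 and 1.77.

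Plasma cell genes were higher in part. Of 16 above the level, 8 were higher, 2 lower and 6 neither, with a median log2 fold of 1.00 (0.44 in pLN). Prdm1, the repressor that starts plasma cell differentiation, read 1009 on the GC PP and 78 on the naive PP array, at least 6.91-fold higher by its only set. In pLN it read 119 and 38.2, at least 1.44-fold higher. Mzb1, an endoplasmic reticulum chaperone of antibody-making cells, read 5141 and 85, at least 35.2-fold higher, and in pLN 5728 and 1607. Jchain, which joins IgA and IgM into polymers, read 10633 and 828, a log2 fold of 3.66 against 2.43 in pLN. Sdc1, the plasma cell surface proteoglycan CD138, was higher in PP by all 3 sets above the level, from 1.71 to 2.39, at 2027 against 481. In pLN it read 501 and 905, a log2 fold of -0.83. Xbp1 and Irf4, which drive secretion and differentiation, were not called, at 0.76 and 0.04, although the 4 sets of Xbp1 reached 4.92.

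Immunoglobulin constant genes depended on the probe set. Igha, the heavy chain of IgA, read 14704 and 21346 by its brightest set, a log2 fold of -0.54, 15064 and 8764 by another (0.78), and 10121 and 1791 by the last (2.49). The direction of Igha between GC and naive cells of PP is thus not settled by these arrays. It was bright on both PP arrays and read 280 and 41.2 in pLN by the brightest set. Ighm, the heavy chain of IgM, read 7859 and 44664 by its brightest set, a log2 fold of -2.50, but 7718 and 25.2 by another, at least 52.9-fold higher. Of its 9 sets above the level, 2 were lower and 7 higher in GC cells. Ighg3 gave -1.98 and 0.42. Probes of these related genes can cross-hybridise, which makes their signals uncertain.

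Of 18 genes of IgA-inducing signals, 3 were higher, 9 lower and 6 neither, with a median of -0.90 (0.88 after scaling to the hybridisation controls). Tgfbr1, the type I receptor for TGF-beta, read 3282 and 39, at least 22.5-fold higher, by the only 1 of its 3 sets above the level. The set brightest on the naive PP array, under the level, gave a log2 fold of 0.38. Smad7, an inhibitor of that pathway, read 1254 and 205, with sets at 2.51 and 5.44. Smad3, which carries the same signal to the nucleus, read 498 and 3644, a log2 fold of -2.83, and Tgfbr2, the partner receptor, 3116 and 15894, at -2.34. The cytokine receptors Il10ra and Il5ra were lower, at 148 against 2506 and 129 against 1155. Cd40, which receives T cell help, had sets from -2.82 to 1.20. Of 24 enzymes and cofactors of hypermutation and switching, 10 were higher (41.7%, against 30.6% of all genes), 5 lower (20.8%, against 28.6%) and 9 neither, with a median of 0.70. Ung, the glycosylase that removes uracil from DNA, read 3990 and 379, a log2 fold of 3.34. Polh, an error-prone polymerase that acts at mutated sites, was higher by all 3 sets above the level, from 2.74 to 3.81. Rev3l, the catalytic subunit of another such polymerase, read 2492 and 214, a log2 fold of 3.44. Exo1, an exonuclease of mismatch repair, was higher at 1109 against 57, with its other set at 1.99. Exosc3, a core subunit of the RNA exosome, read 633 and 13.8, at least 4.34-fold higher.

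**Figure D3:**
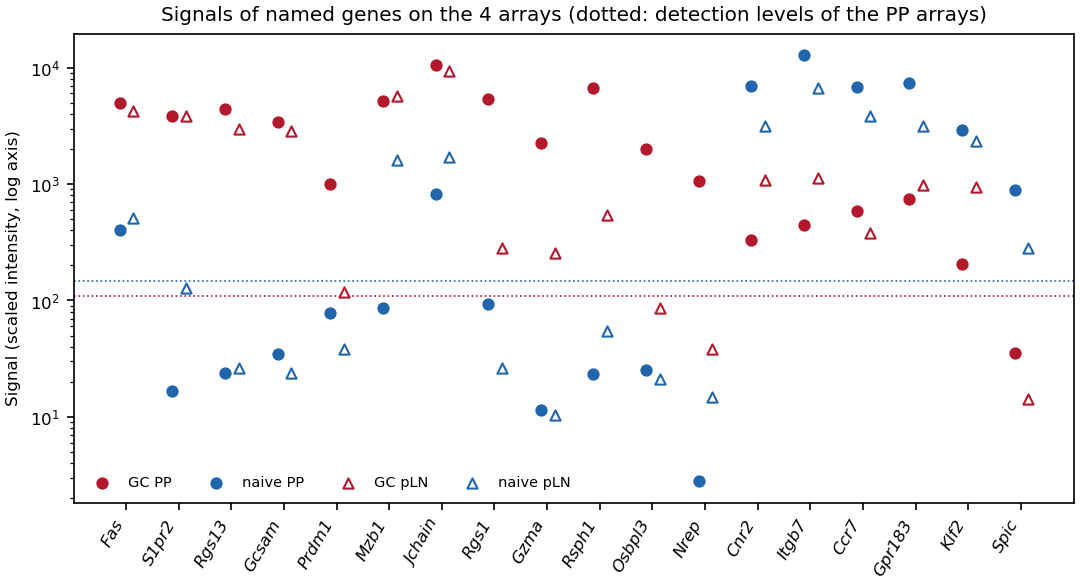
Signals (scaled intensity, log axis) of 18 genes on the 4 arrays, GC in red and naive in blue, PP as filled circles and pLN as open triangles; dotted lines mark the PP detection levels of 109 and 146. Rgs1 read 5362 and Gzma 2248 on the GC PP array, against 284 and 257 on the GC pLN array, while Itgb7 and Cnr2 had their highest signals on the naive PP array.

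Among 13 receptors for lipids and cannabinoids above the level, 4 were higher (30.8%, against 30.6% of all genes), 5 lower (38.5%, against 28.6%) and 4 neither, with a median of -0.04. Cnr2, the peripheral cannabinoid receptor and the lowest of them by log2 fold, read 329 on the GC PP and 6921 on the naive PP array, a log2 fold of -4.33 by its only set. In pLN it read 1075 and 3124, a log2 fold of -1.52. Gpr183, an oxysterol receptor that draws B cells to the outer follicle, read 749 and 7375 and was lower by both sets, at -3.27 and -2.10. Lpar2, a receptor for lysophosphatidic acid, read 82 and 1026, at least 9.40-fold lower, by the only 1 of its 2 sets above the level. The set brightest on the GC PP array gave a log2 fold of -0.15. Ffar2, a receptor for short-chain fatty acids made by gut bacteria, read 725 and 40.4, at least 4.96-fold higher, and its other set gave 1.79.

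Chemokine receptors and adhesion molecules showed a mixed exchange. Ccr7, the receptor for chemokines of the T cell zone, read 589 and 6856, a log2 fold of -3.50. Cxcr5, the receptor for follicle entry, read 2654 and 17595, at -2.72. Ccr6, which places B cells under the patch epithelium, was higher at 3293 against 758, a log2 fold of 2.09, while in pLN it read 3039 and 1824. Cxcr3, a receptor for interferon-induced chemokines, read 520 and 5.58, at least 3.56-fold higher. Ccr9, a receptor for homing to the small intestine, lay under the level on both PP arrays, at 76.4 and 55.6. Itgb7, the beta chain of the gut-homing integrin, read 448 and 12830, a log2 fold of -4.79 by its only set, against 1122 and 6624 in pLN. Its partner Itga4 was lower by its brightest set, at 6177 against 28240, but 5 sets spread from -2.19 to 1.21. Cd44, a hyaluronan receptor, was higher at 2043 against 191, with sets from 0.98 to 3.38. Itgav, an integrin chain that activates latent TGF-beta, was higher at 4465 against 325 by its brightest set and lower by another, at -1.72. Among 14 gut-homing and adhesion genes, 6 were higher and 5 lower, with a median of -0.08, against 30.6% higher and 28.6% lower over all genes.

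Genes of the PNA ligand and of the addition or binding of sialic acid were mostly less than 2-fold apart. Of 16 above the level, 4 were higher, 3 lower and 9 neither, with a median of 0.19. Over all genes 30.6% were higher and 28.6% lower. St3gal1, which adds the sialic acid that hides the PNA ligand, was lower by both sets, at 290 against 777 (log2 fold -1.37) and 95.9 against 840 (at least 7.70-fold). Slc35a1, which carries activated sialic acid into the Golgi, was higher by both sets, at 1.60 and 1.07. Cd22, a receptor that binds sialic acid, read 8231 and 45788, a log2 fold of -2.47, and its other set gave -0.15. Since PNA binding was part of the sort, these glycan genes are not independent of how the cells were chosen.

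Genes typical of naive follicular cells mostly read lower on the GC PP array. Of 20 above the level, 11 were lower, 2 higher and 7 neither, with a median of -1.33, which became 0.45 after scaling to the hybridisation controls. Of 11 with several sets, 3 had every set lower and 4 had sets both ways. Cd55, a regulator of complement, was lower by all 3 sets, from -4.57 to -2.18, at 434 against 10698. Klf2, a factor of quiescence and trafficking, read 205 and 2932, a log2 fold of -3.73, against 951 and 2323 in pLN. Il4ra, the receptor chain for interleukin 4, gave -2.43 and 1.76.

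B cell receptor signalling and MHC class II genes read lower by their brightest sets, but often not by the others. Of 26 signalling genes, 15 were lower and 6 higher, with a median of -1.28, which was -0.36 with the mean of all probe sets, -0.29 after cyclic loess and 0.49 after hybridisation control scaling. Of 18 with several sets, 6 had sets both ways. Ptpn6, an inhibitory phosphatase of this pathway, was lower by both sets, at -2.78 and -3.82, and read 6428 and 44382. Vav2, a guanine nucleotide exchange factor, was higher at 4639 against 276, a log2 fold of 3.99. Syk, the kinase next to the receptor, read 3987 and 39352 (-3.30) and 4177 and 13100 (-1.65) by its bright sets, and 743 and 242 (1.55) and 349 and 55.1 (at least 2.39-fold higher) by its dim ones. Vav1 gave -2.51 and 3.85. Of 14 MHC class II genes, 9 were lower and 2 higher, with a median of -1.33, which became 0.07 after cyclic loess and 0.46 after hybridisation control scaling. H2-Ab1, a chain of the class II molecule, had sets at -1.81, -1.55 and 2.40, and H2-DMa, which loads peptide, at -1.31 and 2.54. Ciita, the master activator of class II genes, read 2838 and 8479, with sets from -1.57 to 0.61.

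Most genes induced by interferon read lower on the GC PP array. Of 17 above the level, 10 were lower and 3 higher, with a median of -1.54 in PP and -1.85 in pLN, and -0.08 in PP after hybridisation control scaling. Slfn8, a Schlafen family member, read 388 and 24712, a log2 fold of -5.93. Mx1, an antiviral GTPase, read 75 and 1222, at least 11.2-fold lower, and Oasl1, of the oligoadenylate synthetase family, 52 and 1073, at least 9.84-fold lower. Only 2 of the 17 had several sets above the level. Gbp3, a guanylate-binding protein, was higher at 999 against 31.2, at least 6.84-fold, while in pLN it read 1261 and 647. Cytokine receptor and STAT genes were lower in 10 of 22 and higher in 3, with Socs3, a feedback inhibitor, lower by all 3 sets, from -3.44 to -1.23. Toll-like receptor genes were lower in 4 of 16 and higher in 2, against 28.6% lower and 30.6% higher over all genes. Tlr7, the sensor of single-stranded RNA, was lower by all 3 sets, from -3.67 to -1.12, at 105 against 1530.

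The remaining groups showed smaller or divided differences, to be read beside 30.6% higher and 28.6% lower over all genes. Of 25 apoptosis regulators, 10 were higher, 2 lower and 13 neither, with a median of 0.68. The 10 include Fas, on which the cells were sorted. Casp2, an initiator caspase, read 1213 and 5, at least 8.31-fold higher, Apaf1, the apoptosome scaffold, 1152 and 175, and Pmaip1, a pro-apoptotic BCL2 family protein, 935 and 141, at least 6.41-fold higher. Mcl1, a survival factor, had 6 sets from -2.21 to 3.76. Among 13 genes of the immediate early and stress response, 6 were higher and 2 lower, and Fos, a rapidly induced transcription factor, read 3553 and 38, at least 24.3-fold higher. Of 19 glycolysis genes, 3 were higher and 8 lower. Slc2a1, the main glucose transporter, was lower by all 3 sets, from -3.96 to -1.99, at 3167 against 39227, whereas Slc2a3, another glucose transporter, was higher at 1136 against 196. Of 23 oxidative phosphorylation genes, 5 were higher and 6 lower, with a median of -0.00. Cox5b, a cytochrome oxidase subunit, was lower by all 5 sets above the level, from -2.66 to -1.25. Of 12 ribosomal protein genes, 7 were lower and 2 higher, with a median of -1.61, which turned to 0.30 with quantile normalization, 0.28 after cyclic loess and 0.18 after hybridisation control scaling.

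**Figure D4:**
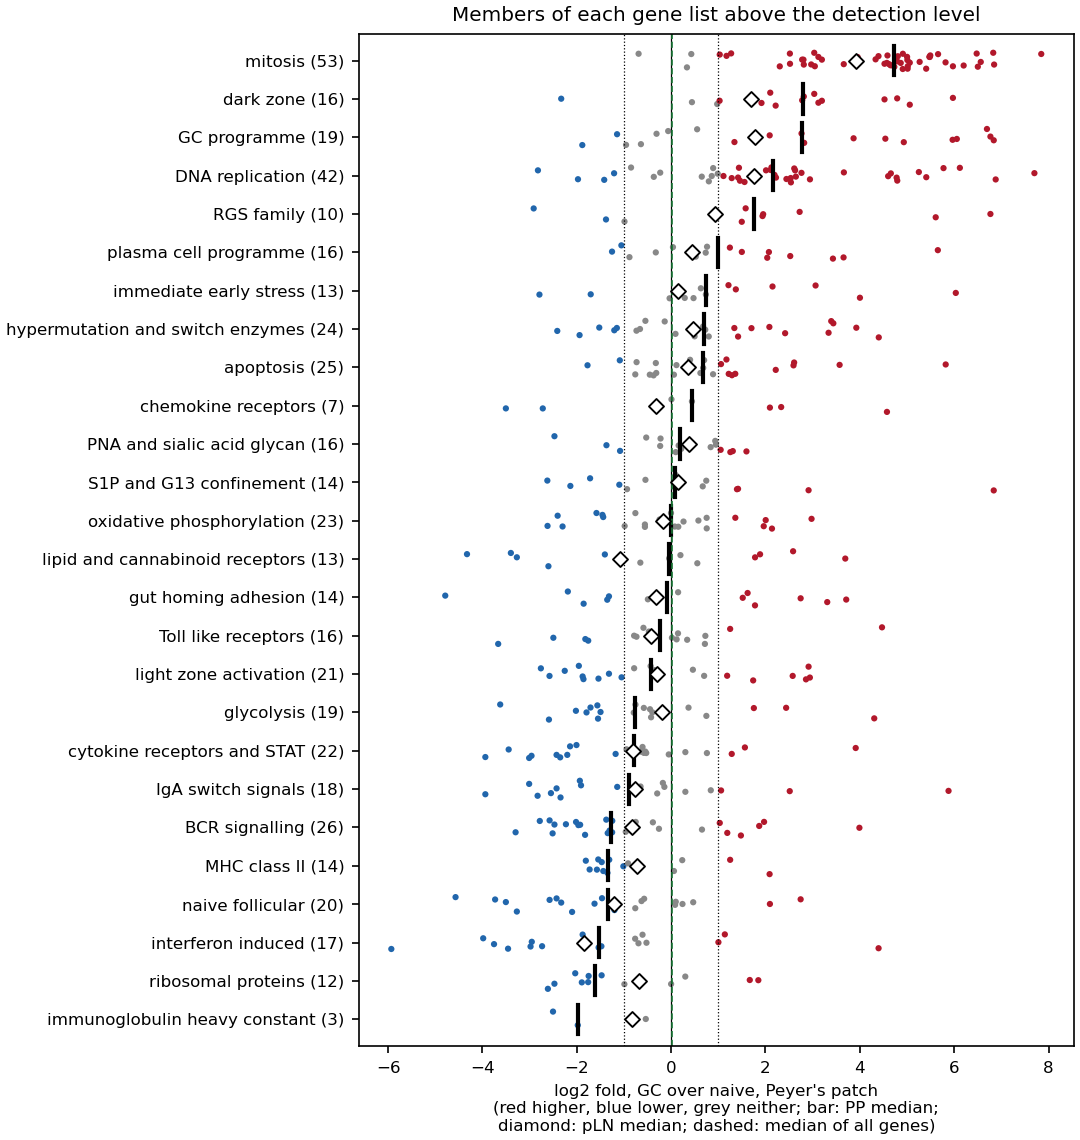
Log2 folds (GC over naive, PP) of the members of 26 gene lists above the detection level, 1 point per gene, with the number of genes in brackets; red points were called higher, blue lower and grey neither. Black bars mark the list medians in PP and diamonds those in pLN; mitosis genes have a PP median of 4.73 and ribosomal protein genes -1.61, beside 0.01 for all genes (dashed).

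Genes whose probe sets above the level all gave the same direction were ranked next; where those sets lie along the transcripts was not analysed here. Ranked by the set nearest to 0, the 12 highest were Gcsam, Nrep, Osbpl3, Clspn, Sgo1, Ttk, Ncapg, Atad5, Mcm10, Aurkb, Ncaph and Cenpf. For 11 of the 12, all but Ncapg, the naive signal of the brightest set lay under the level, so this order and membership rest on signals not above background. With such signals set at the level, 3 of these genes were among the 12 highest. All but Gcsam, Nrep and Osbpl3 act in replication or mitosis. Nrep, a small protein first described in neurons, read 1066 and 3 by 1 set and 977 and 3.80 by the other, at least 7.31-fold higher by the brighter, while in pLN it lay under the level at 37.9 and 14.7. Osbpl3, an oxysterol-binding protein, read 2019 and 25, at least 13.8-fold higher, with its other set above the level at 5.34. Its pLN signals were 86.9 and 21.2. Aurkb, a mitotic kinase, read 2659 and 52, and Ttk, a kinase of the spindle checkpoint, 1805 and 48.

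The 12 lowest by the same rule were Ptpdc1, Ctnna1, Patj, Spic, Rnf144a, Krt8, Slc39a3, Rbpms, Cyp2d22, Mapk12, Gm20559 and Txnrd3. For 7 of these 12 the GC signal of the brightest set lay under the level, and 3 were among the 12 lowest with such signals set at it. Rnf144a, a ubiquitin ligase, read 75 and 6994, at least 64.1-fold lower, with its other set above the level at -3.40. Ctnna1, the alpha-catenin that ties cadherins to actin, read 452 and 10926, with sets at -4.55 and -4.49, and in pLN 634 and 4637. Ptpdc1, a phosphatase domain protein, read 54 and 2085, at least 19.1-fold lower, and 25.8 and 1131 in pLN. Spic, a transcription factor of the Ets family, read 35.1 and 883, at least 8.10-fold lower, and 13.4 and 361 by its other set. Slc39a3, a zinc importer, read 110 and 1073, with sets at -3.11 and -3.19. Mapk12, a p38 kinase, read 113 and 963, with sets at -2.91 and -3.42. Krt8 is an epithelial gene whose values are given above.

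**Figure D5:**
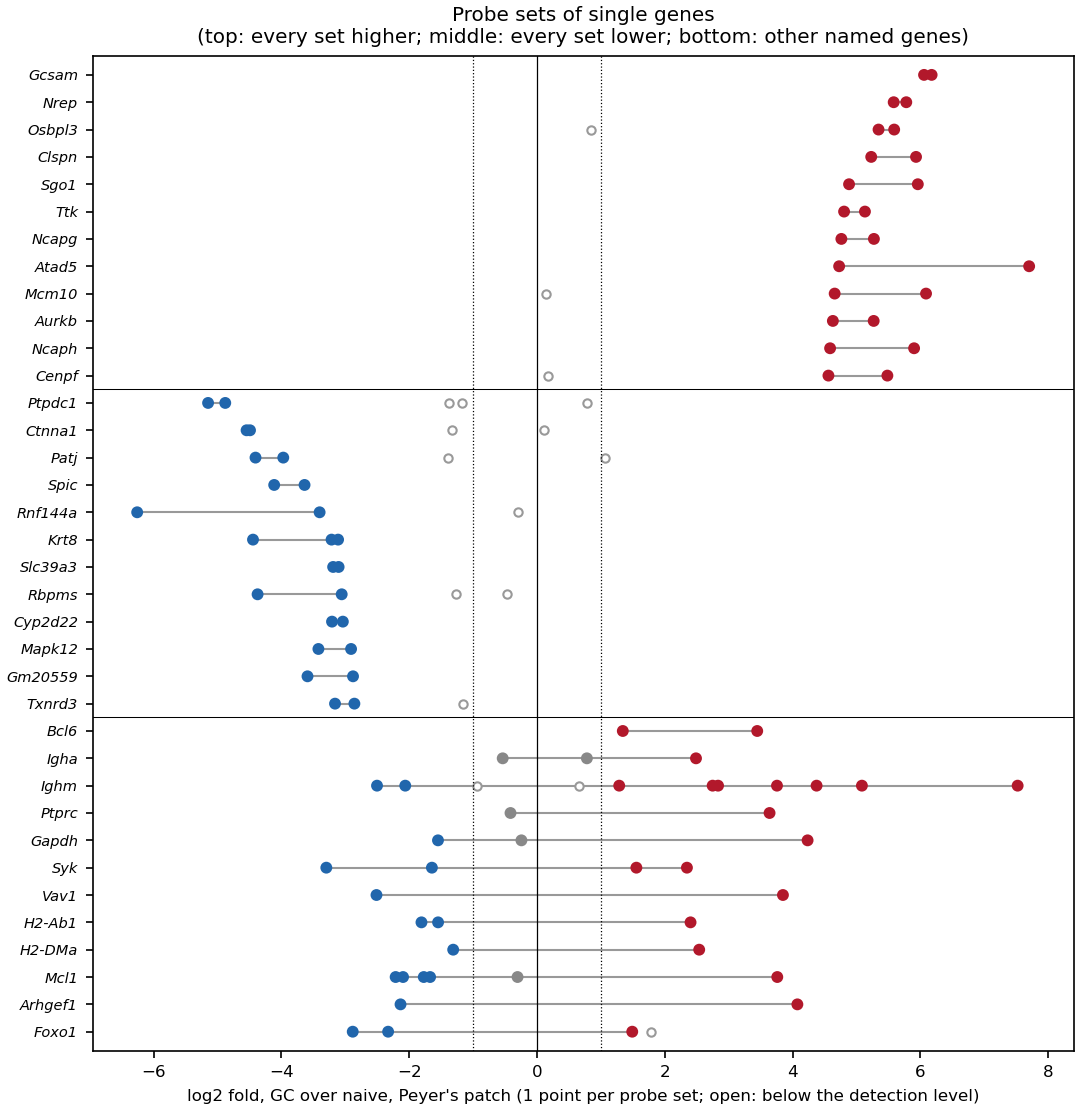
Log2 folds (GC over naive, PP) of single probe sets, 1 point each, filled where above the detection level (red higher, blue lower, grey neither) and open where below. The top 12 genes had every filled set higher and the middle 12 every filled set lower; among the bottom 12, Ighm spans -2.50 to 7.52 and Gapdh -1.55 to 4.23.

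The PP folds were then set beside those of pLN, which share no array with them. In pLN 2170 of 10385 genes (20.9%) were higher and 2470 (23.8%) lower. Of the 3024 genes higher in PP, 1791 (59.2%) were also called higher in pLN, 21 lower, 1134 neither, and 78 were under the level. Of the 2832 lower in PP, 1813 (64.0%) were also lower in pLN and 1 was higher. The tissues also shared the direction of the control differences. In pLN the 5' and 3' control sets of Gapdh gave log2 folds of 2.88 and -0.76, beside 4.23 and -1.55 in PP. The part of this shared difference in the matching calls was not tested. Of the 772 genes with every set higher in PP, 343 were so in pLN, and of the 303 with every set lower 153; in all 447 (8.7%) and 276 (5.37%) of 5140 such genes had every set higher and lower in pLN. The probe sets of a gene were farther apart in PP. The median range within a gene was 1.89 log2 units in PP and 1.43 in pLN, and it was wider in PP for 3073 of 4542 genes (67.7%). The 3' over 5' ratio of the naive array was also the larger in PP, as given above, and its part in these ranges was not tested.

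By the signals as read, some genes differed more in PP than in pLN. Rsph1, a radial spoke protein of cilia, read 6644 and 23 in PP, at least 45.5-fold higher, and 538 and 54.6 in pLN. It was called higher in both tissues. Its naive signals lay under the level in both, so neither size is measured. Ncoa5, a nuclear receptor coactivator, read 1654 and 32, at least 11.3-fold higher, and 1303 and 696 in pLN. Copg2, a coatomer subunit, read 564 and 25.2, at least 3.86-fold higher, and 444 and 669 in pLN. Arhgap33, a GTPase-activating protein, read 540 and 15.7, at least 3.70-fold higher, and 287 and 283 in pLN. In Ncoa5, Copg2 and Arhgap33 the GC signals of the tissues lay closer together than the naive signals, and the naive PP signal was under its level. Zkscan6, a zinc finger protein, was lower in PP by both sets, at 2196 against 15549 (-2.81), and read 2347 and 1929 in pLN. Plcb2, a phospholipase C, read 177 and 1344 in PP and 588 and 513 in pLN. Mysm1, a histone deubiquitinase, was instead higher in both tissues and by more in pLN, at 1.29 in PP and 3.89 in pLN. Its naive signals were 169 in PP and 9.41 in pLN. The naive pLN signal was under its level of 82.7, so the size of the pLN fold is not measured. With 1 array per group none of these differences between tissues was tested.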

How the data were processed

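Gene expression was measured in 4 pooled B cell samples, 1 array each. RNA was extracted with TRIzol and biotinylated cRNA hybridised, per the labels' protocols. The deposited values are linear intensities that the authors made with GCOS, per the submitters' processing notes; its version, algorithm and scaling target were not given in the sources used here. Every deposited array has a median of 1.

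Each array was multiplied to a 2% trimmed mean of 500 (factors 68.1 for GC PP, 63.4 for naive PP, 56.6 for GC pLN and 50.0 for naive pLN), which assumes equal bulk signal in both cell types. Of 67 listed genes of other tissues, 61 were measured by 107 probe sets; their median, 16.9, was the offset and their 90th percentile the detection level (51.7 and 82.7 on the GC and naive pLN arrays). Genes above the level numbered 9308 on the GC PP and 8402 on the naive PP array. The number of arrays, 1 per group, limits the precision of all values.

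Of 45101 probe sets, 932 had several symbols and 9211, controls included, were not listed in the platform annotation, and neither kind was used for genes; 9012 genes had more than 1 probe set. The RefSeq table held the Entrez identifiers of 34754 probe sets and changed 0 symbols. The number of table columns left unused was 0. Of 763 genes on 38 lists, 684 were measured; the rest were not used here.

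Named genes were the 6 population markers, the 12 highest and 12 lowest with all probe sets in 1 direction, and up to 4 called members of each list with up to 2 more whose sets point both ways. The rule also took the 6 largest differences from pLN each way, up to 6 genes with opposite calls in pLN, and fixed B cell genes. Genes added outside it, after their values were seen, are Top2a, Ube2c, Espl1 and Kif11, Smc2, Smc4 and Pttg1, Ms4a1, Cd79b, Pax5, Mybl1, Ezh2, Pou2af1, Irf8, Gna13, Cd86, Sdc1, Xbp1, Irf4, Smad7, Tgfbr2, Ung, Cd4, Adgre1 and Nkg7. The members and lists were chosen with earlier results of these data known. Alternatives covered scaling, offset, level, probe set choice and fold. Python 3.11.15, numpy 2.4.6 and pandas 2.3.3 were used, with limma 3.58.1 in R 4.3.3 for cyclic loess only. The calling steps were tested on simulated data in which all probe sets of a changed gene moved alike. Those data held no 3' bias, so they do not bear on calls that depend on the probe set.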

Additional observations from a re-analysis of the deposited data

Results flagged for a closer look

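In 22 of 5638 genes compared, the call was opposite in the 2 tissues, and 7 of them are among the named genes. All 7 were higher in GC cells of PP and lower in GC cells of pLN; the difference between tissues was not tested, since each group is 1 array. Itgax, an integrin chain of dendritic cells, read 425 and 112 in PP and 30.8 and 199 in pLN (GC and naive), a PP minus pLN difference in log2 fold of 3.96. Atp1b1, a subunit of the sodium pump, differed by 4.11, with 827 and 303 in PP and 94.2 and 712 in pLN; its 4 PP sets above the level ranged from -0.47 to 1.84. Ccl5, a chemokine of T and NK cells, differed by 3.33, with 466 and 129 against 171 and 554. Klrd1, a receptor chain of NK cells, differed by 2.29, with 220 and 80.7 against 134 and 288. Inppl1, an inositol phosphatase, differed by 3.24, Tbc1d9, a Rab regulator, by 2.88, and Sspn, a membrane protein of the dystrophin complex, by 2.84. The GC PP signals of these last 3 genes lay between 280 and 546. The naive PP signals of Itgax, Ccl5, Klrd1, Inppl1 and Sspn were under the level of that array, and so was the GC pLN signal of Itgax on its own array. The sizes of these 5 differences therefore rest on signals not above background and are not measured. With the naive PP signal set at the level, Klrd1 was at least 1.51-fold and Sspn at least 1.92-fold higher in GC cells of PP, short of the 2-fold call.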

How the results depend on the processing

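No paired analysis was possible because each group is 1 array, and for the same reason no replicate could be left out. Scaling decided most. With the arrays scaled to the hybridisation controls, 6583 genes were higher and 447 lower, 2572 had every probe set higher and 20 every set lower, and 25 of 27 list medians lay above 0 instead of 13. The median over all genes moved to 1.79, against -0.26 with quantile normalization. Among list medians at or beyond 1 below 0, those that turned to above 0 there were naive follicular (0.448), B cell receptor signalling (0.486), MHC class II (0.455), ribosomal (0.182), stromal (0.738), gut epithelium (0.985) and other-tissue genes (0.191). Medians nearer 0 turned too: IgA switching (0.881), light zone (1.3), cytokine receptors (0.977), Toll-like receptors (1.51), glycolysis (1.05), oxidative phosphorylation (1.79), lipid receptors (1.74), gut homing (1.65) and Paneth cell genes (1.33). With quantile normalization 474 genes had every set lower. Without the filter on dim genes 5416 were lower, and with dim signals set at the level 461 had every set higher. A log2 fold of 2 left 1484 higher and 1154 lower genes, with 264 and 67 by every set. The other alternatives kept these counts within 1.5 times. Where named genes were recomputed, 147 (cyclic loess) to 188 (median scaling) of 189 called ones kept their call. They were not recomputed with hybridisation control scaling, so this range and the single genes below leave it out. It raises the log2 folds of bright genes by about 1.79, so lower calls nearer to 0 than that would not keep their direction. Ribosomal genes turned to a median of 0.297 with quantile normalization and 0.279 after cyclic loess, MHC class II to 0.0748 after cyclic loess, and stromal genes to 0.086 at the 95th percentile level. Erythroid genes turned to -0.459 without the filter. The heavy chain genes turned to 0.91 with the mean of probe sets and 0.78 with the set brightest on GC PP. Single genes turned with quantile normalization (H2-DMb2 0.0665, Gapdh 0.148, Rpl4 0.215, Rpl27 0.252) and cyclic loess (H2-DMb2 0.188, Gapdh 0.234, Rpl4 0.0843, Rps18 0.0622, Rpl27 0.304). With the mean of probe sets these were Mef2c (0.261), Hsp90b1 (1.59), Ighm (2.56), Arhgef1 (0.969), Rgs2 (1.5), St3gal6 (-0.979), Dnmt1 (1.48), Rfc4 (0.137), Vav1 (0.668), H2-DMb2 (0.0786), H2-DMa (0.613), Pfkl (0.126), Gapdh (0.813), Ndufb8 (-0.081), Ddit3 (0.122) and Rpl27 (0.798). With the set brightest on naive PP they were Itgav (-1.72), St3gal6 (-2.06), Ccnd3 (-1.61), Slc16a1 (-0.98) and Atp1b1 (-0.201). With the set brightest on GC PP they were Hsp90b1 (4.23), Ighm (2.75), Ccnd2 (0.0195), Dnmt1 (2.99), H2-DMa (2.54), Ddx58 (2.44), Rps18 (0.412) and Csf1r (0.28). The cause was not tested.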
